A study of Mus musculus with 5 samples.

Results

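The 10 listed genes of the MHC class I antigen presentation pathway were followed through the oligodendrocyte (OL) lineage of the adult mouse corpus callosum. They were listed by name for their known function, with earlier results of these data known. Of the 10 genes, 8 are rows of the deposited expression matrix, which has 11733 genes. These are B2m, H2-D1, H2-K1, Tap2, Psmb8, Psmb10, Psme1 and Psme2. Tap1 and Psmb9 are not rows of this matrix and were not analysed here. The cells came from P60 mice with Emx1::Cre, Sox10::Cre and a LoxP-GFP-STOP-TdTom reporter, of mixed CBA and C57BL/6 background, in which Sox10 drives the reporter in the OL lineage, Emx1-driven Cre leaves TdTom in cells of dorsal origin and cells of ventral origin carry GFP. Both samples carried the same alleles, came from healthy tissue and differed in the reporter by which they were sorted. Tissue of 2 mice was pooled before sorting, and 1 library was made from the TdTom+ and 1 from the GFP+ cells, so the values below have no replicate, there is neither a test nor a p-value. The 3 spinal cord samples of the series were not analysed here.

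Class I molecules display peptides from a cell's own proteins to CD8 T cells. The heavy chains H2-D1 and H2-K1 fold with the light chain B2m, and the TAP transporter, of Tap1 and Tap2, brings peptides into the endoplasmic reticulum where they are loaded. The peptides are cut by the proteasome, in which the interferon-inducible subunits Psmb8, Psmb9 and Psmb10 can replace the constitutive catalytic subunits Psmb5, Psmb6 and Psmb7, and the PA28 activator, of Psme1 and Psme2, binds the end of the core particle. In the healthy brain most cells other than microglia and endothelial cells are known for low class I levels, and interferon-gamma raises the whole set.

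The matrix holds UMI counts, molecules counted once by their barcode, divided by the total of the cell. The TdTom+ library held 1901 cells with 7148899 UMIs, at a median of 3347 UMIs per cell, and the GFP+ library 952 cells with 3594853 UMIs, at a median of 3318. Levels are UMIs in 1000000 (CPM), summed over the cells named and given with the exact Poisson interval, shares with the exact Clopper-Pearson interval, and ratios with an exact interval that is conditional on the summed UMIs (95% for each). The intervals cover counting error only. The authors deposited 12 population labels, from OPCs (OL precursors) through COP/NFOL (committed precursors and newly formed OLs) and MFOL (myelin-forming OLs) to MOL (mature OLs). These labels were made by clustering the same cells, so differences between labels are descriptions. The OPC label was checked against marker genes: the 6 OPC markers summed to 8920 CPM in the 83 cells so labelled and to 35.0 CPM in all other cells, and the 6 markers of myelin-forming OLs to 1579 and 44706 CPM. COP/NFOL held 19 cells and is given apart from the 11 labels with at least 50 cells.

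Promoter windows are shown for the light chain, both heavy chains and Psme2, the member with most UMIs. RefSeq has an entry for 9 of the 10 listed genes in the table of promoters used (GRCm38.p6, the build called mm10). Each window is the 250 bases before the first listed start, 5′ to 3′ along the gene, with capitals for any match, on either strand, to an interferon-stimulated response element (GAAA, any 2 bases, GAAA), an interferon-gamma activated site (TTCNNNGAA), a CCAAT box (CCAAT) or a TATA box (TATAAA). The windows lie at chr2:122147437-122147686, plus strand (B2m), chr17:35262844-35263093, plus strand (H2-D1), chr17:34000348-34000597, minus strand (H2-K1) and chr14:55591102-55591351, minus strand (Psme2).
B2m: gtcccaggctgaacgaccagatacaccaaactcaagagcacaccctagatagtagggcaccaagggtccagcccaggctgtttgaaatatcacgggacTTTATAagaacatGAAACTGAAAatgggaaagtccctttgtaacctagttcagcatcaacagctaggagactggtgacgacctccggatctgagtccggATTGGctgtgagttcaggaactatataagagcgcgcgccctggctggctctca
H2-D1: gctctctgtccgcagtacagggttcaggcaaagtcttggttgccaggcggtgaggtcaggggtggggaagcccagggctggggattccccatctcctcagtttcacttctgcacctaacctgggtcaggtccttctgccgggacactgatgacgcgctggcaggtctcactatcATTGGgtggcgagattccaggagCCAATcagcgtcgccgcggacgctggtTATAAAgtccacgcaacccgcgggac
H2-K1: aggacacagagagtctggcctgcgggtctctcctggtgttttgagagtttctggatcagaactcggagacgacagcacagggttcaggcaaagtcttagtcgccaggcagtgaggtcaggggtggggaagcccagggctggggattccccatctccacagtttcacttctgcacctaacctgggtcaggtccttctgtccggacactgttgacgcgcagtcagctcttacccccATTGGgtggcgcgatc
Psme2: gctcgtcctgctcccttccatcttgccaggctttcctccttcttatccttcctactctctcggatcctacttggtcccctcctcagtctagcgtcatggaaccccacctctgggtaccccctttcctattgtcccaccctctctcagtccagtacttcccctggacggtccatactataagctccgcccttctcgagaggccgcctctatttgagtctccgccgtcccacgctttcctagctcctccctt
The B2m window held the only match among the 9 genes to the letters used here for the interferon-stimulated response element, GAAACTGAAA. Such a match was found in 2.98% of all 32851 windows of the table. Looser forms of the element were not searched, so the other windows, those of both heavy chains among them, may hold one. The B2m window also held 1 CCAAT match and 1 TATA match, both on the other strand. The H2-D1 window held 2 CCAAT matches and 1 TATA match, and the H2-K1 window 1 CCAAT match, against 33.8% and 12.4% of all windows with a CCAAT and a TATA match. None of the 4 motifs was found in the windows of Psme1, Psme2 and Psmb10, and a match to the interferon-gamma activated site, which 7.02% of all windows hold, was found for Psmb8 alone. Aligned to each other, the H2-D1 and H2-K1 windows were identical at 174 of 190 aligned bases (91.6%), with 120 gap positions. A match of letters is a description of the sequence and not a bound site.

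B2m lies on chr2:122147686-122153083 and the class I heavy chain, transporter and immunoproteasome genes H2-D1, H2-K1, Tap2 and Psmb8 lie in the major histocompatibility complex on chr17 (GENCODE M21 on mm10). Psmb10 lies on chr8, and Psme1 and Psme2 lie beside each other on chr14, at chr14:55578123-55581529 and chr14:55587441-55591113. Since class I genes are near-identical copies of each other, the last 500 bases of each gene's longest coding transcript, where 3′ libraries place their reads, were searched for stretches of 75 bases shared with a transcript of another gene. None of the 426 stretches was shared for B2m, H2-D1, H2-K1, Tap2, Psmb8 or Psmb10. For Psme1 36 stretches (8.45%) were shared, with Gm7776, and for Psme2 192 (45.1%), with Psme2b. These are shares of stretches and not of reads, and how far they affect the UMIs of Psme2 was not tested. The mm10 sequence is that of C57BL/6, and how reads of CBA heavy chain alleles mapped to it was not tested.

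All members were of low or moderate level. Psme2, the beta subunit of PA28, had the most UMIs (468) and a mean level over the libraries of 42.6 CPM, which placed it at rank 3365 of 11733 genes. B2m followed with 264 UMIs and 24.4 CPM, and Psmb10, which takes the place of Psmb7 in the immunoproteasome, with 162 UMIs and 14.9 CPM. Psme1, the alpha subunit of PA28, reached 10.4 CPM with 111 UMIs. The heavy chains were lower than their light chain: H2-D1 had 109 UMIs and 9.97 CPM, and H2-K1 had 44 UMIs and 4.05 CPM. Tap2 was found in 14 cells with 1 UMI each, and Psmb8 had 5 UMIs in 4 cells. No member reached the 50 CPM at which folds were to be counted, so counts are given for genes of at least 10 CPM, a group that holds B2m, Psmb10, Psme1 and Psme2 and just misses H2-D1. In 1974 of 2853 cells (69.2%) there was no UMI of any member.

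In the TdTom+ and the GFP+ library as a whole the members stood at like levels. B2m was at 24.9 CPM (21.4 to 28.8) in TdTom+ and 23.9 CPM (19.1 to 29.5) in GFP+ cells. H2-D1 was at 10.5 and 9.46 CPM, and H2-K1 at 4.20 and 3.89 CPM. For all 3 chains the intervals of the libraries overlapped. Psmb10 was at 15.4 CPM in TdTom+ and 14.5 CPM in GFP+ cells, Psme1 at 10.2 and 10.6 CPM, and Psme2 at 45.6 CPM (40.8 to 50.8) and 39.5 CPM (33.3 to 46.6). Tap2, with 8 and 6 UMIs, was at 1.12 and 1.67 CPM, and Psmb8, with 4 and 1 UMIs, at 0.560 and 0.278 CPM. The log2 ratios of TdTom+ over GFP+, on log2(CPM + 1), ran from −0.33 (Tap2) to 0.29 (Psmb8), and the interval included 0 for each of the 8 genes. Summed over the members, TdTom+ cells were at 112 CPM and GFP+ cells at 104 CPM, a log2 ratio of 0.12 with an interval of −0.06 to 0.30. None of the 4 members of at least 10 CPM had a log2 ratio of 0.5 or more in size, as did 2.60% of all 7659 such genes and 0.441% of the 2950 genes of at least 50 CPM. The interval of the sum leaves out a difference between the libraries larger than 0.30 on the log2 scale as far as counting error goes.

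**Figure D1:**
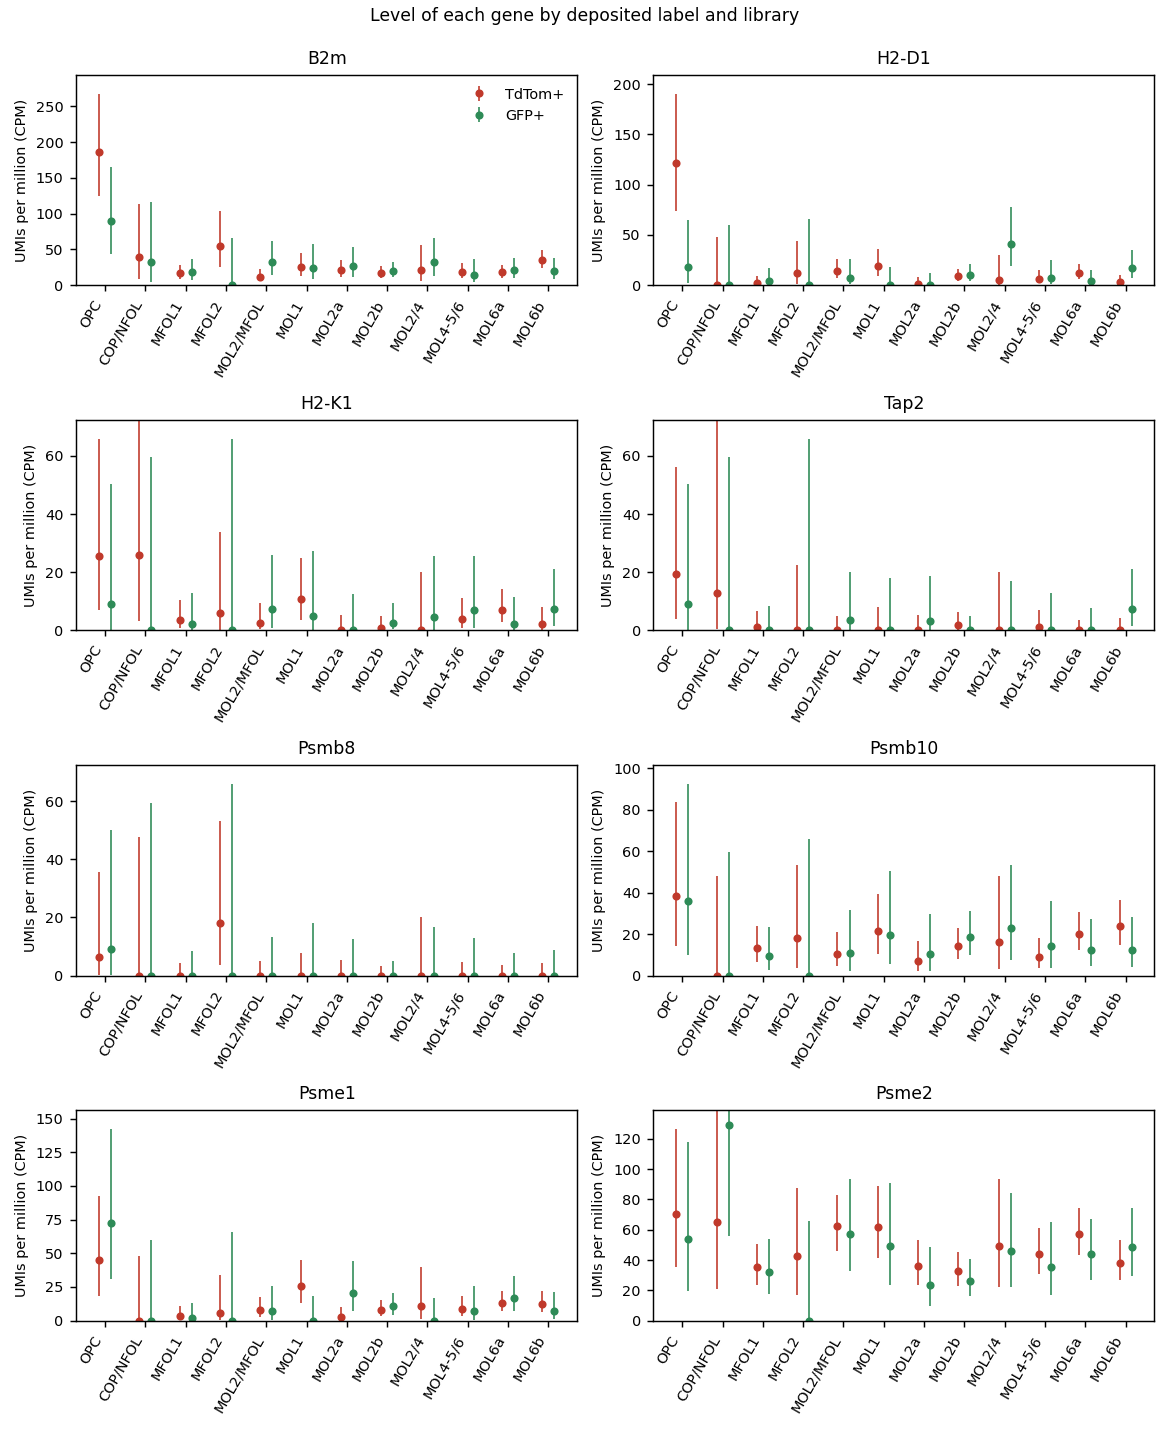
Level of each of the 8 genes (CPM, linear axis from 0) in the 12 deposited labels, as points for the TdTom+ (red) and GFP+ (green) library with exact Poisson intervals at 95%, some of which are cut at the top for COP/NFOL. B2m and Psme1 have their highest points in OPCs in both libraries and H2-D1 in the TdTom+ library alone, while Psme2 runs, over both libraries, from 30.2 CPM in MOL2b to 93.4 CPM in COP/NFOL.

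Across the labels, the class I chains stood apart in OPCs. The sum of B2m, H2-D1 and H2-K1 was 244 CPM (188 to 311) in OPCs and ran from 23.8 CPM in MFOL1 to 54.7 CPM in MOL2/4 over the other 10 labels with at least 50 cells, so the interval of OPCs lay above that of each of them. It was 50.3 CPM in COP/NFOL, from 7 UMIs. Among the 10 other labels, every label's interval overlapped that of its neighbour in the order of levels, while at the ends that of MOL2/4 (34.3 to 82.9) lay just above that of MFOL1 (16.1 to 34.0). The same split was seen for B2m, at 146 CPM (104 to 200) in OPCs and at 17.4 to 40.7 CPM elsewhere. Of the 9 B2m UMIs in MFOL2, the highest of the other labels, 7 came from 1 TdTom+ cell that also held 120 of the 132 UMIs of 9 microglial markers in these libraries, and MFOL2 without that cell was at 9.22 CPM.

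The heavy chains also had their highest level in OPCs, with fewer UMIs. Over the labels with at least 50 cells, 44.5% of all genes of at least 10 CPM were highest in OPCs. For genes of at least 50 CPM this share was 33.8%. H2-D1 was at 78.8 CPM (48.8 to 120) in OPCs, followed by MOL2/4 at 24.9 CPM, and was at 1.01 CPM in MOL2a, where 1 UMI was found in 230 cells. H2-K1 was at 18.8 CPM (6.09 to 43.8) in OPCs from 5 UMIs, an interval that overlapped those of 8 of the 10 other labels. It had 0 UMIs in MOL2a, which allows up to 3.02 CPM with 3 counts as the floor and up to 3.72 CPM by the exact interval. Tap2 had 4 of its 14 UMIs in OPCs (15.0 CPM, 4.09 to 38.4) and at most 3 in any other label. Psmb8 had 2 UMIs in OPCs and 3 in MFOL2, of which 2 came from the cell with microglial UMIs, and 0 in every other label.

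The PA28 subunits, which form a ring together, differed in how far OPCs stood above the other labels with at least 50 cells. Psme1 was at 56.3 CPM (31.5 to 92.8) in OPCs against 3.17 CPM in MFOL1 to 17.9 CPM in MOL1, with the interval of OPCs above all 10 others. Psme2 was at 63.8 CPM (37.1 to 102) in OPCs against 30.2 CPM in MOL2b to 61.0 CPM in MOL2/MFOL, with the interval of OPCs above none of them. It was at 93.4 CPM (49.7 to 160) in COP/NFOL, where 13 UMIs came from 7 of 19 cells and 5 from a single cell. Psmb10 was at 37.5 CPM (18.0 to 69.0) in OPCs and at 8.06 to 20.9 CPM in the other labels, and its interval in OPCs lay above that of MOL2a alone. All 4 members of at least 10 CPM had a label at least 2 times as high as another, as did 86.0% of all such genes and 75.7% of genes of at least 50 CPM, a share that says little of the members.

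A comparison of OPCs with all other cells together was chosen after these values were seen. B2m was 6.81-fold higher in OPCs (4.72 to 9.60), at 146 against 21.5 CPM. H2-D1 was 9.38-fold higher (5.53 to 15.2), at 78.8 against 8.40 CPM, and H2-K1 5.04-fold higher (1.55 to 12.8), at 18.8 against 3.72 CPM. The 3 chains together were 7.26-fold higher (5.48 to 9.48). Among the processing genes, Psme1 was 6.14-fold higher (3.31 to 10.6), Tap2 15.7-fold higher (3.60 to 54.5, from 4 UMIs) and Psmb10 2.59-fold higher (1.22 to 4.89). Psme2 was at 63.8 CPM in OPCs and 43.0 CPM in the other cells, a ratio of 1.48 (0.86 to 2.40) that fell below 1 with edgeR's TMM factors (log2 −0.14). Of the 4 members of at least 10 CPM, B2m, Psmb10 and Psme1 were at least 2-fold higher in OPCs, a share to be read against 24.3% of all such genes. Psmb10 fell below that fold with TMM factors (log2 0.67) and relative to the median gene (0.98), which leaves B2m and Psme1. The interval of the ratio lay above 1 for 7 of the 8 members, Psme2 being the exception, and for 36.4% of the 11652 genes with a UMI. With TMM factors the lower limits of H2-K1 (1.55) and Psmb10 (1.22) also fall below 1. The share of all genes was not counted with those factors. Higher values in OPCs were common in these libraries, since the median gene of at least 10 CPM had a log2 ratio of 0.39, and relative to that gene the class I chains were higher by 2.47 on the log2 scale and all members by 1.67. Fewer molecules of other genes per cell, such as those of myelin, and more molecules of the member cannot be told apart by such ratios. The log2 ratio of the class I chains was 2.54 without the 20 genes with most UMIs in the total and 2.16 with TMM factors, which lowered every log2 ratio in OPCs by 0.70, so that ratios under 1.63 turned below 1.

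**Figure D2:**
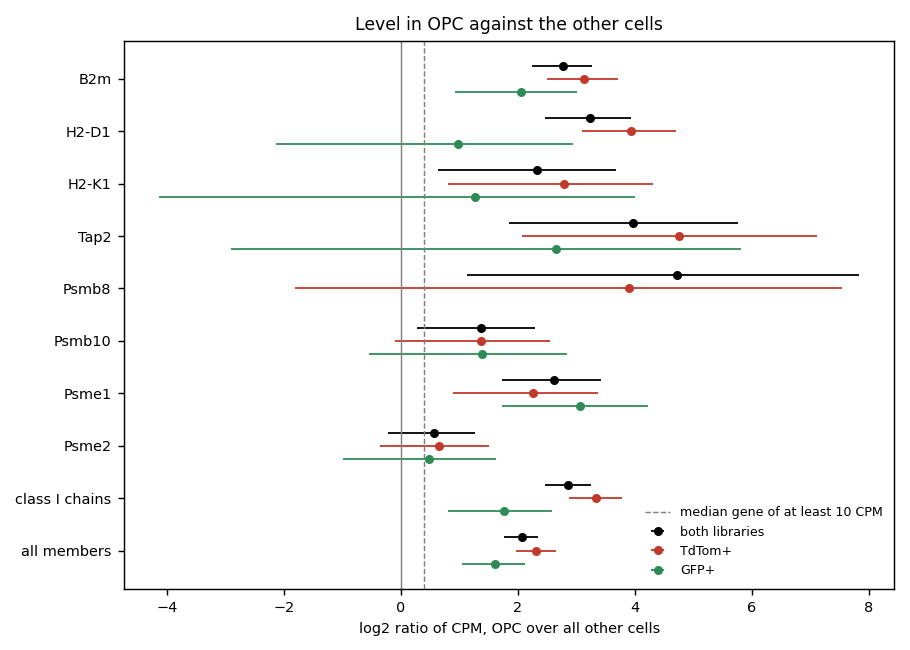
Log2 ratio of CPM in OPCs over all other cells for the 8 genes, the 3 class I chains summed and all members summed, in both libraries (black), TdTom+ (red) and GFP+ (green), with exact intervals at 95%; the GFP+ value of Psmb8 has 0 UMIs in the other cells and is not drawn. The dashed line marks the median gene at 0.39. All values of both libraries together lie right of it, and the interval of Psme2 alone includes 0.

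Taken within each library, B2m was 8.74-fold higher (5.66 to 13.1) in OPCs than in other cells of the TdTom+ library and 4.13-fold higher (1.91 to 8.02) in the GFP+ library. H2-D1 was at 122 CPM in TdTom+ OPCs (19 UMIs in 15 of 48 cells) and at 18.0 CPM in GFP+ OPCs (2 UMIs in 2 of 35 cells), against 8.01 and 9.18 CPM in the other cells. Its ratio was 15.2 (8.55 to 26.0) in the TdTom+ and 1.96 (0.23 to 7.70) in the GFP+ library, so the higher level of H2-D1 in OPCs rests on the TdTom+ library. H2-K1 gave 4 UMIs in TdTom+ and 1 UMI in GFP+ OPCs. Psme1 was 4.76-fold higher (1.84 to 10.4) in TdTom+ and 8.38-fold higher (3.32 to 18.7) in GFP+ OPCs, and Psmb10 had like ratios of 2.59 and 2.62 with intervals that included 1 in each library. Between the OPCs of the libraries, Psme1 was at 45.0 CPM in TdTom+ and 72.1 CPM in GFP+ cells (log2 ratio −0.67, −2.38 to 0.98), Psme2 at 70.7 and 54.1 CPM and Tap2 at 19.3 and 9.02 CPM, all with intervals that included 0.

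The class I chains summed to 334 CPM (249 to 438) in TdTom+ OPCs and to 117 CPM (62.4 to 200) in GFP+ OPCs. The log2 ratio of the libraries within OPCs was 1.50 (0.61 to 2.51), while in all other cells it was −0.07 (−0.40 to 0.26), at 33.0 and 34.7 CPM. The intervals of these ratios did not overlap, but the pooled value hides differences among labels. In MOL2/4 the ratio of the chains was −1.47 (−3.30 to −0.0097), from 5 UMIs (27.3 CPM) in TdTom+ and 17 UMIs (77.7 CPM) in GFP+ cells, and in the 9 other labels of at least 50 cells its interval included 0. With 1 library per origin, a difference between origins and one between 2 libraries or sorts cannot be told apart. Of 74 pairs of a member and a label with at least 1 UMI, the interval of the library ratio excluded 0 for 5, above 0 for 2 and below 0 for 3. Depth did not differ much between the OPCs of the libraries, at a median of 2924 UMIs in TdTom+ and 2849 in GFP+ cells, and the 6 OPC markers summed to 9089 and 8683 CPM. Astrocyte markers, of which Aqp4, Aldoc, Slc1a3 and Slc1a2 were found in OPCs and Gja1 and Gfap had 0 UMIs there, summed to 951 CPM in TdTom+ and 866 CPM in GFP+ OPCs, against 187 CPM in all other cells. Neuronal markers summed to 103 and 135 CPM in TdTom+ and GFP+ OPCs, against 2.20 CPM in other cells, with Stmn2 and Slc17a7 at 0 UMIs in OPCs. The 9 microglial markers used here, among them C1qa, Cx3cr1 and Csf1r, had 0 UMIs in OPCs. The 7 endothelial markers summed to 11.3 CPM in OPCs, from 3 UMIs of Itm2a with the 6 others at 0, and to 4.96 CPM in other cells. None of the 9 lymphocyte markers is a row of the matrix. The part of such cells in the class I levels was not tested.

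The share of cells with a UMI followed the levels. Cells were thinned to 2400 UMIs each, which left out 215 cells, 12 of them OPCs. B2m was then found in 33.8% of OPCs (23% to 46.0%) and 5.18% of the other cells (4.36% to 6.11%), against 38.6% and 7.26% before thinning. In OPCs of the TdTom+ library it was found in 18 of 41 thinned cells (28.5% to 60.2%) and in those of the GFP+ library in 6 of 30 (7.71% to 38.6%). H2-D1 was found in 15.5% of OPCs and 1.83% of other cells. In the TdTom+ library it was found in 11 of 41 thinned OPCs, while it was found in 0 of 30 GFP+ OPCs, which allows a share of cells with a UMI of up to 10.0% with 3 counts as the floor and of up to 11.6% by the exact interval. Any of the 3 chains was found in 45.1% of OPCs (33.2% to 57.3%) and 7.75% of other cells. Psme2 was found in 9.86% of OPCs and 9.86% of the other cells, and Psme1 in 14.1% and 2.42%. Median depth before thinning was 2909 UMIs in OPCs and ran from 2839 to 8234 UMIs over the other labels. No label holds a cell type known to lack these genes, so no background share can be given beside these values.

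**Figure D3:**
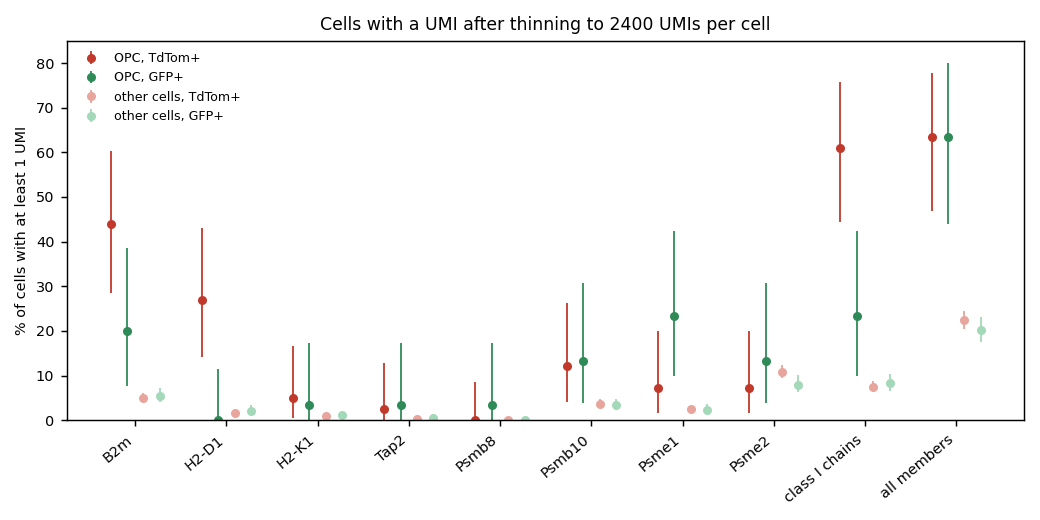
Share of cells with at least 1 UMI, in percent, after thinning each cell to 2400 UMIs, for the 8 genes, any class I chain and any member, with exact Clopper-Pearson intervals at 95%. For B2m and for any chain, OPCs of both libraries (dark) lie above the other cells (pale), at 61.0% and 23.3% for any chain, whereas for Psme2 the intervals of OPCs include the values of the other cells.

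Few cells held several members at once. A UMI of at least 3 different members was found in 8 of 83 OPCs (9.64%) and in 16 of 2770 other cells (0.578%), and no member was found in 30.1% of OPCs and 70.4% of the other cells. B2m and a heavy chain were found together in 9 OPCs, all 9 of the TdTom+ library, where 14 more cells had B2m alone and 8 a heavy chain alone. In the GFP+ library 9 OPCs had B2m alone, 3 a heavy chain alone and none both. No OPC had more than 5 class I UMIs, so the sum over OPCs did not rest on a single cell. The cell with microglial UMIs held 11 member UMIs, 7 of them B2m, and no other cell had more than 6.

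The interferon-inducible subunits made up a small part of the catalytic subunits of the proteasome. Psmb8 and Psmb10 had 167 UMIs against 4870 of Psmb5, Psmb6 and Psmb7, a share of 3.32% (2.84% to 3.85%). The share was 3.40% in the TdTom+ and 3.15% in the GFP+ library, with overlapping intervals. It was 7.19% in OPCs (3.77% to 12.2%, from 12 UMIs) and 3.18% in the other cells (2.71% to 3.71%), 6.31% and 8.93% in OPCs of the TdTom+ and GFP+ library. Among mature OLs it ran from 1.68% in MOL2a to 5.19% in MOL6b (3.42% to 7.51%). Nearly all of these UMIs were of Psmb10, which made up 14.9% of the UMIs of Psmb10 and Psmb7, the pair that compete for 1 position. In OPCs that share was 25% (12.7% to 41.2%). Without Psmb9, which is not a row of the matrix, these shares are of the subunits measured.

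**Figure D4:**
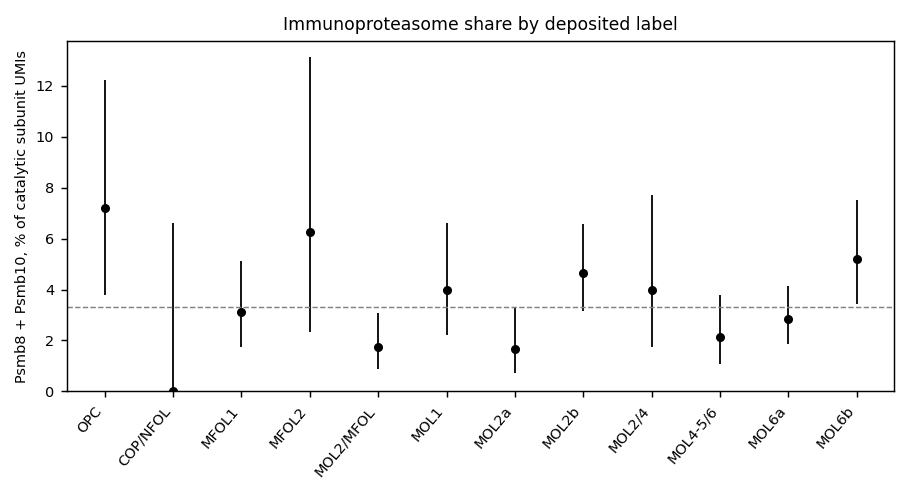
Share of Psmb8 and Psmb10 in the UMIs of the measured catalytic subunits, in percent, for the 12 deposited labels, both libraries together, with exact Clopper-Pearson intervals at 95%; the dashed line is the share in all cells (3.32%). OPCs have the highest point, at 7.19%, and its interval overlaps those of most labels.

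Other class I genes were sparse. Of 16 listed, H2-T22, H2-T23 and Fcgrt are rows of the matrix. H2-T22, a nonclassical heavy chain, was at 37.5 CPM in OPCs (10 UMIs) and 2.48 CPM in other cells, 15.1-fold higher (6.50 to 32.4), with 5 UMIs in OPCs of each library and ratios of 14.0 in TdTom+ and 15.7 in GFP+ cells. H2-T23 had 10 UMIs and Fcgrt, the neonatal Fc receptor, 5 UMIs in all. H2-T22 was singled out after its values were seen. Of the class II list only H2-DMa and Ctss are rows, with 5 of 21 H2-DMa UMIs and 0 of 18 Ctss UMIs in OPCs.

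Genes of peptide loading and trimming had mixed ratios. Of 11 rows of that list, 6 had a ratio with an interval above 1 and none below 1, against 36.4% of all genes with an interval above 1. The median log2 ratio over its 9 genes of at least 10 CPM was 0.68, against 0.39 for all such genes, and −0.02 with TMM factors. Calr (calreticulin) was at 206 CPM in OPCs and 110 CPM in other cells, 1.87-fold higher (1.40 to 2.45), and Canx (calnexin), with 1834 UMIs in all, was at 270 and 168 CPM, a ratio of 1.61 (1.25 to 2.03) that TMM factors take just below 1. Sec61b, of the translocon, was at 229 and 136 CPM and the chaperone Hsp90b1 at 304 and 239 CPM, a log2 ratio of 0.35 that is below that of the median gene. Npepps and Lnpep, peptidases that trim peptides, were at 86.3 and 120 CPM and at 3.75 and 9.74 CPM, with intervals that included 1. Tapbp (tapasin), which bridges TAP and the heavy chain, was at 33.8 and 15.8 CPM, a ratio of 2.13 with an interval of 0.96 to 4.14. Between labels, Calr, Canx, Pdia3, Sec61b, Sec61g and Hsp90b1 were at least 2 times as high in one as in another, 6 of 8 genes of at least 50 CPM, against 75.7% of all such genes. The genes named below as past this span are to be read against the same share.

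Every listed proteasome gene that is not a member had a smaller ratio in OPCs than Psme1. Of the 3 constitutive catalytic subunits, Psmb5 was at 214 CPM in OPCs and 100 CPM in other cells (2.13-fold higher, 1.60 to 2.79), Psmb6 at 255 and 264 CPM and Psmb7 at 113 and 85.6 CPM. Of the 11 other subunits of the core particle, 4 (Psma1, Psma3, Psma4 and Psma6) had an interval above 1, against 36.4% of all genes, with ratios of 1.44 to 1.62 that turn below 1 with TMM factors. Their median log2 ratio was 0.39, the value of all genes. The most abundant of them, Psma7, Psmb1 and Psma3, were at 259, 270 and 270 CPM in OPCs and at 262, 260 and 187 CPM in other cells. Psma1, Psma4, Psma6, Psmb2, Psmb3 and Psmb4 passed the 2-fold span between labels, as did Psmb5 and Psmb7. Among 7 other activators and assembly factors, Psmg2 was 3.97-fold higher (2.34 to 6.38) and Psmg1 2.48-fold higher (1.05 to 5.03) in OPCs, while Pomp, which assembles new core particles, was at 225 and 214 CPM, Psmg3 at 45.0 and 26.2 CPM and Psmg4, which passed the span between labels, at 78.8 and 65.9 CPM. Psme3 and Psme4, which bind the same core as PA28, were at 30.0 and 21.5 CPM and at 15.0 and 20.3 CPM. Psmg1, Psmg2, Psme3 and Psme4 are outside the rule for named genes that is given below.

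Regulators of class I transcription were mixed. Of 26 rows, 10 had a ratio with an interval above 1 in OPCs, close to the 36.4% of all genes, and none below, and the median log2 ratio over 19 genes of at least 10 CPM was 0.37, close to that of all genes. The 3 with most UMIs, Irf2, Ifnar2 and Jak1, were at 75, 52.5 and 56.3 CPM in OPCs and at 62.2, 46.2 and 43.4 CPM in other cells, with intervals that included 1, and Irf2 passed the span between labels. Of those chosen after their values were seen, Ifngr2, a chain of the interferon-gamma receptor, was 6.05-fold higher in OPCs (3.46 to 9.98), with ratios of 6.33 in the TdTom+ and 5.46 in the GFP+ library. Socs3, which damps cytokine signalling, was 28.3-fold higher (17.9 to 44.3), at 135 and 4.77 CPM, and was at 35.8 CPM in MOL1. Irf1, an activator of class I genes, had 6 of its 11 UMIs in OPCs, 3 in each library. Nlrc5, the class I transactivator, was not analysed here.

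Interferon-stimulated genes did not all go one way. Of 29 listed, 17 are rows of the matrix and 15 had a UMI. Of these, 7 had an interval above 1 and 1 below 1 in OPCs, against 36.4% of all genes above 1. Over the 3 genes of at least 10 CPM, Ifi27, Ifit2 and Xaf1, the median log2 ratio was 0.97, against 0.39 for all such genes. With TMM factors it was 0.26. Ifi27 was at 221 and 113 CPM and Ifit2 at 41.3 and 10.9 CPM in OPCs and other cells. Xaf1 had 0 of 621 UMIs in OPCs and was at 59.3 CPM in other cells. With 3 UMIs taken as the floor of the OPCs, it was 5.27-fold lower there. Ifi27 and Xaf1 passed the span between labels. Among genes chosen after their values were seen, Ly6e was at 93.8 CPM in OPCs and 1.72 CPM in other cells, with 25 of its 43 UMIs in OPCs, and Irgm1 had 7 of 12 UMIs there. None of the genes of at least 10 CPM in these 8 lists had a log2 ratio of 0.5 or more in size between the libraries.

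Over the 12 labels, the genes of at least 50 CPM most like B2m were Cspg5 (Pearson r = 0.93 of log2(CPM + 1)), Gm2a (0.93) and Alcam (0.93). Those most like H2-D1 were Fam213a (0.85), Fam134a (0.85) and Itgb8 (0.82). All 6 were higher in OPCs, with Cspg5, a proteoglycan of OPCs, at 3590 CPM there and 16.1 CPM in other cells. These values have 12 points, 1 per label, of very unequal depth. Without COP/NFOL, r was 0.70 for Itgb8 and 0.80 for Fam134a. Among members, B2m and Psme1 had r = 0.68 over 11 labels and −0.11 without OPCs, and B2m and Psmb10 0.73 and 0.35. Psme1 and Psme2 had r = 0.64 with OPCs and 0.52 without them.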

How the data were processed

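Single-cell libraries were made with 10x Genomics 3′ version 2 from sorted TdTom+ and GFP+ cells of P60 corpus callosum, 1 per origin. The paper names the STAR aligner, cell limits (200 to 3000 genes, mitochondrial UMIs under 5%), Seurat integration and graph-based clustering, and the submitters' processing notes name Cell Ranger 2.1.1 and mm10. The deposited matrix gives a signal for each gene in each cell: its UMI count divided by the sum for that cell. Counts were recovered by dividing by each cell's smallest value above 0, which gave whole numbers within 0.01 for 100% of values. The deposited total count per cell differs slightly from this divisor, for a reason not given in the sources used here. Library and labels were read from the deposited table of cells, of which 35 columns were not used. Values of some listed genes are not reported here. No doublet caller was run, and 1 barcode occurs in both libraries.

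UMIs were summed per library and label and scaled to 1000000 (CPM). No test was made. A log2 ratio of libraries has a pseudocount of 1 CPM, a ratio of OPCs none, and a count of 0 allows up to 3 counts over the group. A gene passed the fold between libraries at a log2 ratio of 0.5 in size, and between labels when the highest of the labels with at least 50 cells was at least 2 times the lowest. Cells were thinned without replacement with a random seed of 1. Named genes were the members in all labels and libraries, and from 8 pathway lists the 3 with most UMIs and those of at least 50 CPM past a fold. For B2m and H2-D1 the 3 genes most like them were also named. Outside this rule, Tapbp, Npepps, Lnpep, Psmg1, Psmg2, Psme3 and Psme4 were named. So were Ifngr2, Socs3, Irf1, Ly6e and Irgm1, chosen after their values were seen. The members, the lists, the markers and the motifs were chosen with earlier results of these data known, and the comparison of OPCs with other cells after the values were seen. Alternatives were the mean of each cell's CPM, TMM factors, standardized composition (both libraries given the mean of their label shares), the paper's limits (met by 2815 cells), a pseudocount of 10 CPM, other filters, merged labels, each library alone, other depths and UMI minimums, and leaving out the cell with most microglial UMIs. On simulated data for 7655 genes of the library comparison, of which 200 had a set change, all 200 came out in the right direction and 95.9% of intervals held the true ratio.

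R 4.3.3 with edgeR 4.0.16 (TMM factors only) and Python 3.11.15 with scipy 1.17.1, pandas 2.3.3, numpy 2.4.6 and matplotlib 3.10.9 were used.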

Additional observations from a re-analysis of the deposited data

Results flagged for a closer look

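The ratio of the TdTom+ over the GFP+ library had intervals on opposite sides of 0 in different labels for 2 members and for the sum of the class I chains. The difference between labels was not tested, since each library is a single sample, and among 74 pairs of a member and a label 5 had an interval that excluded 0.

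For H2-D1 the log2 ratio was 2.69 in OPCs (interval 0.71 to 5.90, 19 UMIs in 15 of 48 TdTom+ cells and 2 UMIs in 2 of 35 GFP+ cells). It was −2.70 in MOL2/4 (−8.37 to −0.06), where 1 UMI was found in 60 TdTom+ cells and 9 UMIs in 4 of 63 GFP+ cells, 4 of them in 1 cell. In MOL6b it was −2.03 (−4.91 to −0.19), with 3 UMIs in 294 TdTom+ cells and 7 UMIs in 7 of 136 GFP+ cells.

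For Psme1 the log2 ratio was 4.74 in MOL1, a value that depends on the pseudocount because 12 of 111 TdTom+ cells had 1 UMI each and the 50 GFP+ cells had 0. Its exact interval starts at 0.27. Against the floor of 3 counts, which is lower than the exact limit of 0 UMIs, the level in TdTom+ cells was 1.74-fold higher. That value lies above the start of the exact interval and is not a lower bound. In MOL2a the ratio was −2.46 (−6.16 to −0.34), with 2 UMIs in 163 TdTom+ cells and 6 UMIs in 5 of 67 GFP+ cells.

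For the class I chains summed, the log2 ratio was 1.50 in OPCs (0.61 to 2.51, 52 and 13 UMIs) and −1.47 in MOL2/4 (−3.30 to −0.0097, 5 and 17 UMIs). The UMIs of H2-D1 named above are part of these sums.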

How the results depend on the processing

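No paired analysis was possible because each origin had a single library. The summed level of the members, TdTom+ over GFP+, kept a log2 ratio of 0.10 to 0.15 under its 4 alternatives, the 32 alternative ratios of single members stayed within their intervals, no member passed the fold between libraries under 3 alternatives, and the immunoproteasome share stayed between 3.15% and 3.56%. With genes of at least 10 CPM in place of 50 CPM, 4 members passed the fold between labels in place of 0, because none reached 50 CPM. The share of all cells with B2m was 5.95% after thinning to 2400 UMIs, 8.17% without thinning, 1.58% at 500 UMIs and 0.265% with at least 2 UMIs required. For Psme2 these were 9.86%, 14.9%, 2.1% and 0.569%. Such shares are set by depth. Among alternatives chosen after seeing the data, the log2 ratio of the class I chains in OPCs over other cells, 2.86, became 3.34 in the TdTom+ and 1.75 in the GFP+ library alone and 2.16 with TMM factors. For all members it was 2.06, and became 1.61 in the GFP+ library alone, 1.36 with TMM factors, 1.67 relative to the median gene and 1.75 without the 20 genes with most UMIs. TMM factors lowered the value of OPCs for every gene alike, by their construction. H2-D1 in OPCs rests on the TdTom+ library, with a log2 ratio of 3.93 there and 0.97 in the GFP+ library. Of the 6 genes most like B2m or H2-D1, 5 left the first 3 places without COP/NFOL. With 2 to 21 UMIs per member in OPCs other than B2m, depth limits every statement on H2-K1, Tap2 and Psmb8.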
